A study of Mus musculus with 6 samples.

Results

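Lipid-laden macrophages are macrophages that have engulfed dying cells or lipoproteins and store the lipid they cannot degrade at once. The lipid-sensing receptor TREM2, with its adaptor, is known to switch on a gene set that includes the lysosomal glycoproteins GPNMB and CD68, the secreted proteins osteopontin and galectin-3, and proteins that take up, carry and hydrolyse fat. Such cells are known from atherosclerotic plaques, obese fat and injured kidney and brain. The 10 genes followed here are Trem2, Slamf8, Gpnmb, Cd68, Spp1, Lgals3, Lpl, Cd36, Fabp5 and Abcg3. They were picked by name and are 10 of 22260 genes tested, read by 19 of 56605 probes. Gpnmb, Slamf8 and Abcg3 were included because their signal was lower in the KO-labelled ureters of this very comparison, so their differences are given as a description, without a test. The other 7 were named for their known roles, but with earlier results of these data known.

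The animals were C57BL/6N mice aged 2 months, and the tissue was their ureter, taken 4 days after unilateral ureteral obstruction (UUO), in which the ureter is closed so that urine backs up behind it. Of the 6 arrays, 3 held RNA of Col17a1-WT mice, all labelled male, and 3 held RNA of Col17a1-KO mice, of which replicates 1 and 2 are labelled male and replicate 3 female. Col17a1 encodes collagen XVII, a membrane collagen that ties basal epithelial cells to their basement membrane. Every animal was obstructed, so the comparison concerns the genotype within obstruction and not obstruction itself. Which part of Col17a1 was altered, in which cells, and whether an array held 1 ureter or a pool are not given in the sources used here, and the p-values measure the spread between these 6 samples. Values are log2 signals minus the 75th percentile of the array, so 0 is a probe at that percentile, and levels are compared between arrays and never between probes.

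Several arrays stood apart. Col17a1 read higher, not lower, where the label is KO: at 47720894 to 47720953 of chromosome 19 (mm9) the brighter of its probes had means of -1.17 ± 1.02 in WT and 0.48 ± 0.06 in the KO-labelled group (SD, n = 3 each). The group is therefore called KO-labelled, and all directions rest on the labels. A list of kidney tubule and podocyte markers, with 6 of 12 genes measured, had a mean of 1.74 above its 6-array average in WT replicate 2 and between -0.48 and -0.22 elsewhere. KO replicate 3, the female, had leukocyte markers (9 of 9 measured) at 0.42, within the WT range of -0.09 to 0.57, while KO replicates 1 and 2 were at -0.55 and -0.63. Markers of ureter tissue were present, with 13 of 13 urothelium and 10 of 10 smooth muscle genes measured. Array correlations across genes ran from 0.977 to 0.993.

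The differences of the 10 genes were of unequal size. In the KO-labelled ureters, 6 of them had means lower by 0.82 to 1.85 in log2, namely Gpnmb, Abcg3, Slamf8, Spp1, Cd68 and Trem2. The 4 others, Lgals3, Fabp5, Cd36 and Lpl, differed by at most 0.20. Over all 10 genes 9 means were lower, against 50.2% of all genes tested, and the median difference was -0.83, against -0.00087 over all genes tested. Because 3 genes were picked for being lower, the 7 others are given apart: 6 were lower, with a median of -0.20, and 2 of the 7, Trem2 and Cd68, had an unadjusted p under 0.05 toward lower values, where 4.71% of all genes tested did and 9.06% had such a p in either direction. None of the 7 passed an adjusted p of 0.05 in limma, and 0% of all genes did. Values of the groups did not overlap, with the KO-labelled side lower, for Trem2 and Lgals3 among the 7, against 8.13% of all genes.

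**Figure D1:**
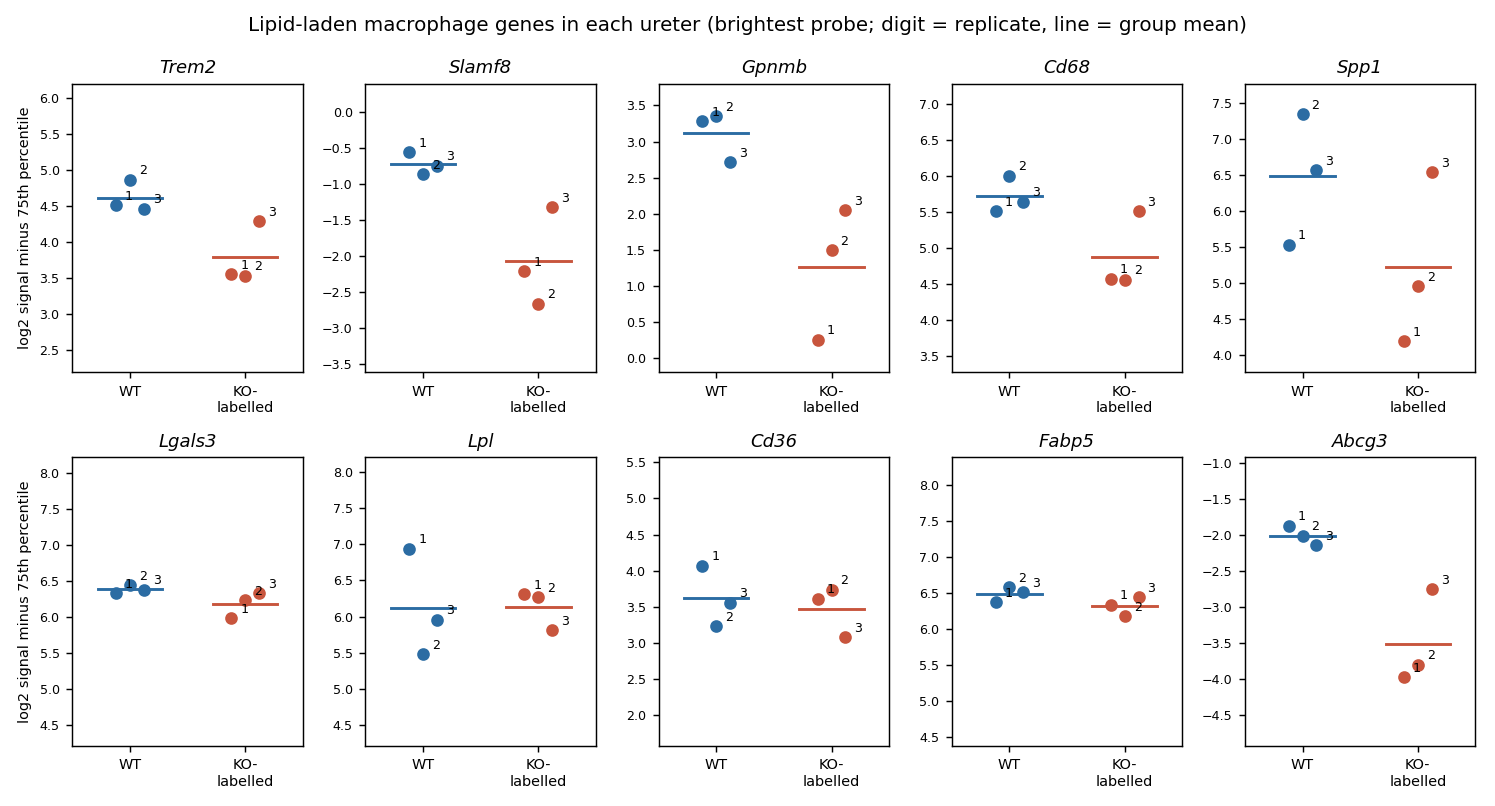
Each panel plots 1 gene at its brightest probe, as log2 signal minus the array's 75th percentile, for 3 WT arrays (blue) and 3 KO-labelled arrays (red). Digits are replicate numbers, lines are group means, and every panel spans 4 log2 units. Gpnmb, Slamf8 and Abcg3, which were picked for lower KO-labelled signal, separate by group. Trem2 and Lgals3 do so too, where 8.13% of all genes separate with the KO-labelled side lower. Spp1 spreads widely within both groups, and KO replicate 3 lies nearest to WT for most genes.

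Among the receptors, Trem2 encodes the lipid-sensing immunoglobulin-like receptor of myeloid cells. Its probe, on chromosome 17 at 48491537 to 48491596 (mm9), read 4.51, 4.87 and 4.46 in WT replicates 1 to 3 and 3.55, 3.53 and 4.29 in KO-labelled replicates 1 to 3. All KO-labelled values lay below all WT values, with replicate 3 closest. The mean was lower by 0.82 ± 0.24 (standard error), or 1.77-fold, with a 95% interval of -1.40 to -0.24 and an adjusted p of 0.457 (limma), so it did not pass. Slamf8 encodes a receptor of the SLAM family that is induced on activated macrophages. At 174512067 to 174512126 on chromosome 1 (mm9) it read -0.56, -0.87 and -0.75 in WT and -2.21, -2.66 and -1.32 in KO-labelled ureters. Its WT values lay within 0.31 of each other and its KO-labelled values spanned 1.34. The difference of -1.34, a 2.53-fold lower mean, is how the gene came to be listed. It was -0.67 with another background correction (normexp), which here adds 50 to every signal and so shrinks differences of dim probes. The signals in the KO-labelled ureters were 26.1 to 58.3.

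Gpnmb encodes a transmembrane glycoprotein of lysosomes that macrophages make when lysosomes are loaded. Its single probe, on chromosome 6 at 49006386 to 49006445 (mm9), gave processed signals of 1527, 1469 and 1039 in WT and 188, 465 and 602 in KO-labelled ureters. On the log2 scale these were 3.28, 3.35 and 2.72 against 0.25, 1.50 and 2.05. The lowest ureter was KO replicate 1, and the gap between the groups was smaller than the range within the KO-labelled group. The means, 3.12 ± 0.35 and 1.27 ± 0.92 (SD, n = 3 each), differ 3.61-fold, the lowest log2 difference of the 10 at -1.85. Without KO replicate 1 the difference was -1.34, and without KO replicate 3 it was -2.24.

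Cd68 encodes a scavenger-type glycoprotein of endosomes and lysosomes, the usual stain for macrophages. Its brightest probe read 5.51, 6.00 and 5.65 in WT and 4.58, 4.56 and 5.51 in KO-labelled ureters. KO replicate 3 equalled the lowest WT array to 2 decimals, so the groups met. The mean was lower by 0.84 ± 0.29 (standard error), or 1.78-fold, with a 95% interval of -1.54 to -0.13 and an adjusted p of 0.495 (limma). The other probes, at 69478314 to 69478373 and at 69478979 to 69479038 on chromosome 11 (mm9), were lower by 0.87 and 0.78, and neither overlapped between groups. The first of them is printed below because it repeats the difference at another place of the transcript, in lower case since no part is singled out.
Cd68 probe: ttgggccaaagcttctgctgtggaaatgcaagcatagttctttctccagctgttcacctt
In whole tissue, fewer cells of a type and less RNA per cell cannot be told apart. The macrophage and monocyte marker list (18 of 18 measured) moved with Trem2 and Cd68: its mean lay between 0.05 and 0.44 in WT, at -0.33 and -0.52 in KO replicates 1 and 2, and at 0.12 in KO replicate 3.

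Of the secreted proteins, Spp1 encodes osteopontin, a matrix phosphoprotein made by macrophages, epithelium and kidney tubules. It read 5.53, 7.34 and 6.56 in WT and 4.19, 4.96 and 6.54 in KO-labelled ureters, on chromosome 5 at 104869788 to 104869847 (mm9). WT replicate 1 and KO replicate 3 crossed, so the groups overlapped, and the spread over the 6 arrays was the widest of the 10 genes at 3.15. The difference of -1.25 had a standard error of 0.70, a 95% interval of -2.94 to 0.44 and an adjusted p of 0.632 (limma). WT replicate 2, where the kidney markers were high, also gave the highest Spp1 value. The macrophage and monocyte list (0.44), the leukocyte list (0.57), Trem2 and Cd68 were highest on that array too. The parts of kidney and of macrophage RNA in the Spp1 value were not tested. The difference was -0.82 without that array, -0.73 without KO replicate 1 and -1.91 without KO replicate 3.

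Lgals3 encodes galectin-3, a sugar-binding lectin of macrophages and epithelium. Its brightest probe, at 48005414 to 48005473 on chromosome 14 (mm9), read 6.33, 6.44 and 6.38 in WT and 5.98, 6.23 and 6.32 in KO-labelled ureters. The groups just failed to overlap, with KO replicate 3 nearly touching WT replicate 1. The mean was lower by 0.20 ± 0.12 (standard error), with a 95% interval of -0.50 to 0.10 and an adjusted p of 0.662 (limma). A second probe is spotted 10 times on each array and its coordinates, 48004398 to 48005214, span more than its 60 bases. It is shown because its 10 spots make it the most often measured of the 19.
Lgals3 probe: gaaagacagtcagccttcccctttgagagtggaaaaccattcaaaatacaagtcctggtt
This probe had means of 5.19 ± 0.08 and 5.01 ± 0.22 (SD, n = 3 each), lower by 0.18, and its groups overlapped.

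The lipid handling genes showed no difference beyond the spread between arrays. Lpl encodes lipoprotein lipase, which frees fatty acids from circulating triglyceride. Its brightest probe, on chromosome 8 at 71430267 to 71430326 (mm9), read 6.94, 5.48 and 5.96 in WT and 6.31, 6.27 and 5.81 in KO-labelled ureters. WT replicate 1 was the highest array and WT replicate 2 the lowest, with all KO-labelled arrays between them. The difference was 0.01 ± 0.38 (standard error), with a 95% interval of -0.91 to 0.92 and an adjusted p of 0.998 (limma). Its sign turned with quantile normalisation and when WT replicate 2, WT replicate 3, KO replicate 1 or KO replicate 2 was left out, and it ranged from -0.32 without WT replicate 2 to 0.41 without WT replicate 1. Of the 5 other Lpl probes, 3 were higher and 2 lower, between -0.12 and 0.23. The pair below lies at 71419652 to 71419711 and at 71425050 to 71425109, and is printed because both stretches, apart in the gene, read highest in WT replicate 1 and lowest in WT replicate 2.
Lpl probe 1: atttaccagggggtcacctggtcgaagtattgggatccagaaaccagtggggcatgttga
Lpl probe 2: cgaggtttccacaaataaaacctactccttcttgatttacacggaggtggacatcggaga
The first had means of 1.71 ± 0.87 and 1.82 ± 0.32 and the second of 4.34 ± 0.78 and 4.31 ± 0.27 (SD, n = 3 each).

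Cd36 encodes a scavenger receptor that takes up fatty acids and oxidised lipoprotein, also in adipocytes and capillary endothelium. It read 4.07, 3.23 and 3.56 in WT and 3.61, 3.73 and 3.07 in KO-labelled ureters, at 17288600 to 17288659 on chromosome 5 (mm9). The highest array was again WT replicate 1, and the lowest was KO replicate 3. The difference was -0.15 ± 0.27 (standard error), with a 95% interval of -0.80 to 0.50 and an adjusted p of 0.898 (limma), and its sign turned without WT replicate 1 (0.08), without KO replicate 3 (0.05) and with array weights. Adipocyte markers (11 of 11 measured) had their highest mean, 0.36, in WT replicate 1, their lowest, -0.23, in WT replicate 2, and -0.21 in KO replicate 3, so Lpl and Cd36 were highest on the array where adipocyte markers were highest. The part of fat tissue in their spread was not tested. Fabp5 encodes a small carrier that moves fatty acids within macrophages and epithelial cells. It read 6.37, 6.58 and 6.51 in WT and 6.34, 6.18 and 6.44 in KO-labelled ureters, which overlap. Its difference was -0.17 ± 0.12 (standard error), with a 95% interval of -0.45 to 0.12 and an adjusted p of 0.706 (limma).

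Abcg3 belongs to the ABCG family of transporters, whose other members include exporters of cholesterol. At 105364077 to 105364135 of chromosome 5 (mm9) the brighter of its probes read -1.87, -2.01 and -2.14 in WT and -3.97, -3.80 and -2.75 in KO-labelled ureters. The WT arrays were tightly grouped, and the lowest of them lay above KO replicate 3, the highest of the others. The difference of -1.50 (2.83-fold) is the value the gene was picked on. It was -0.49 with normexp background, whose added offset of 50 is above all signals of this probe and shrinks the difference. Its signals over the 6 arrays were 10.1 to 42.9. The second probe, at 105364855 to 105364914, was well above background on 3 of 3 WT arrays and on 0 of 3 KO-labelled arrays. Its WT mean was at least 2.12-fold higher, a bound against the lowest signal counted as measured on each KO-labelled array. This probe passed the filter through WT alone and the gene was picked for being lower, so it gives no separate support.

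**Figure D2:**
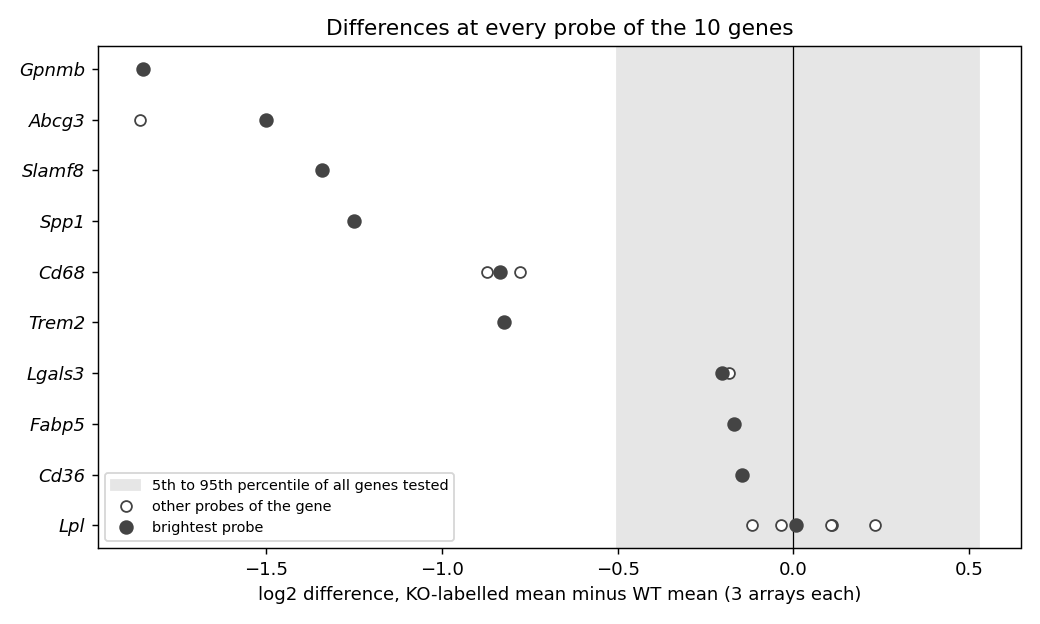
Points are log2 differences, KO-labelled minus WT means of 3 arrays each, with the brightest probe of a gene filled and its other probes open. The grey band runs from -0.50 to 0.53, the 5th to 95th percentile of all 22260 genes. Probes of Cd68 and Lgals3 lie on the same side as the gene's brightest probe, while Lpl probes lie on both sides of 0. Abcg3 was picked for lower KO-labelled signal, so the side of its probes follows from that choice. The open Abcg3 point uses KO-labelled signals that were not well above background.

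Within the KO-labelled group, replicate 3 had the highest value for 8 of 10 genes and the lowest for the other 2, Lpl and Cd36. Within WT no array was highest throughout: replicate 2 was highest for 6 genes and replicate 1 for 4. Replicate 3 of the KO-labelled group is the female, and sex cannot be told apart from that animal.

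**Figure D3:**
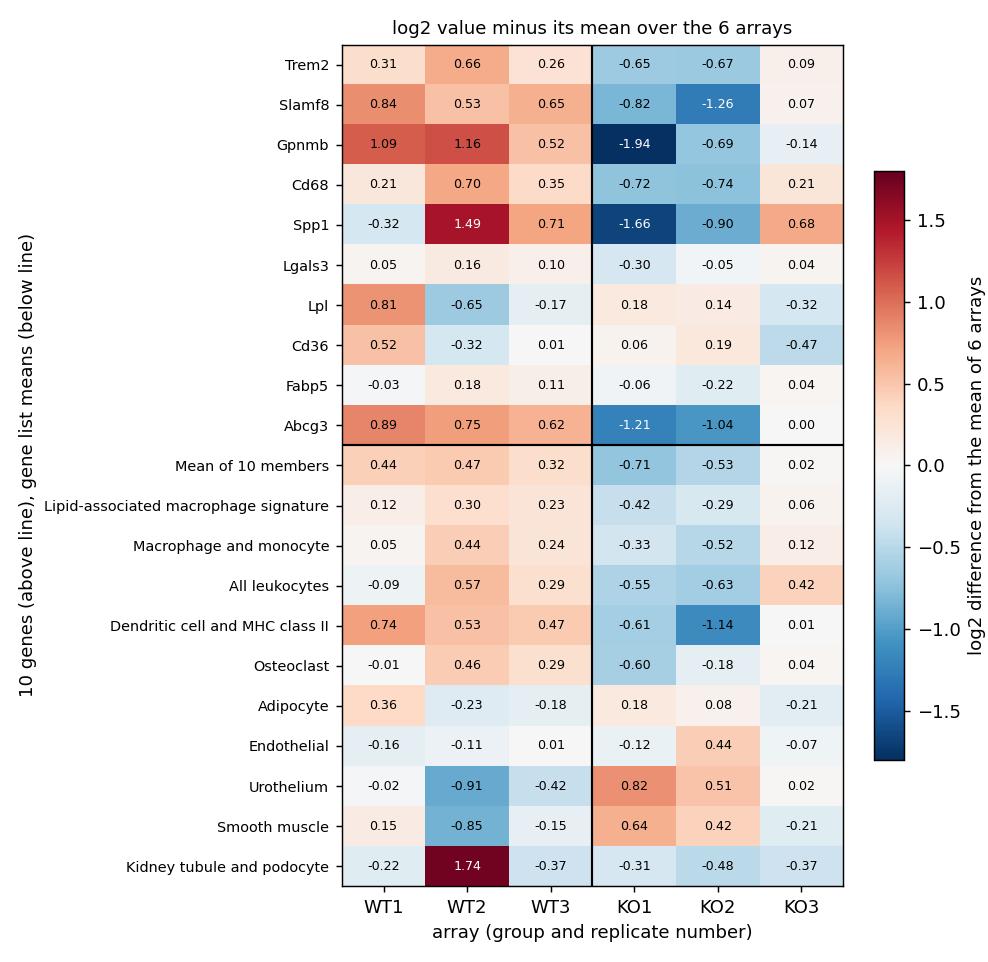
Rows above the line are the 10 genes and rows below it are means over gene lists, each as the log2 difference from its own average over the 6 arrays (columns). KO replicates 1 and 2 are low for most of the 10 genes and for the macrophage, leukocyte and MHC class II lists, KO replicate 3 is near 0.02 for the mean of the 10, and kidney markers are high in WT replicate 2.

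Differences were also taken relative to the macrophage and monocyte list, by subtracting its mean on each array, a step chosen after the data were seen. That list was itself lower by 0.49, with 15 of its 18 genes lower and 3 higher. Its mean does not separate cell number from RNA per cell. On this scale 3 of the 7 genes not picked on their signal were lower and 4 higher, and their median turned from -0.20 to 0.29. With the 3 picked genes included, Gpnmb was lower by 1.36, Abcg3 by 1.01, Slamf8 by 0.85, Spp1 by 0.76, Cd68 by 0.35 and Trem2 by 0.33, while Lpl was higher by 0.50, Cd36 by 0.34, Fabp5 by 0.32 and Lgals3 by 0.29. Among the 7, groups did not overlap for Trem2 and Cd68 on the lower side, against 0.526% of all genes on this scale, and for Fabp5 on the higher side, against 33.7%. Before the subtraction 8.13% of all genes did not overlap with the KO-labelled side lower and 7.28% with it higher. The subtraction thus moved all genes upward, and both shares on this scale largely reflect that shift. The list holds monocyte and resident macrophage genes together, and none of the 10 is in it.

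**Figure D4:**
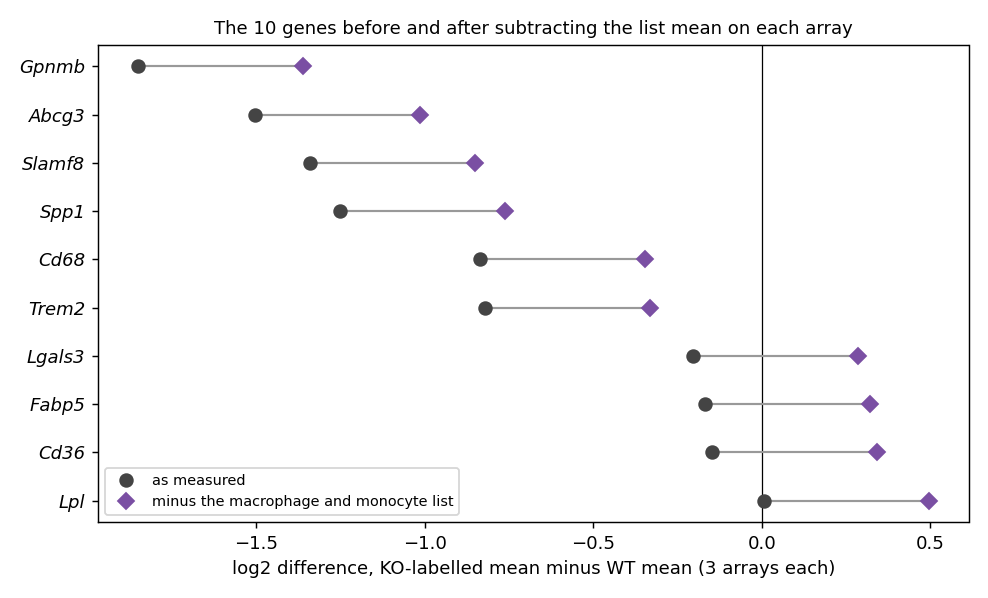
Circles are the log2 differences as measured (KO-labelled minus WT, 3 arrays each) and diamonds the same differences after the mean of 18 macrophage and monocyte markers was subtracted on each array. Every gene shifts by 0.49, so that Lgals3, Fabp5 and Cd36 pass from below to above 0 and Gpnmb stays lowest at -1.36.

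Promoters of the genes were searched for known motifs, as a description only. Gpnmb and Slamf8 were picked for lower signal in KO-labelled ureters, so their being low on the same arrays follows from that choice. The windows printed below were chosen after values and sequences were seen. RefSeq sequence (GRCm38.p6) from 250 bases before to 50 after a start site was held for 8 of the 10 genes, 9 windows in all. The motifs searched on both strands were CACGTG and CATGTG, E-boxes of the kind bound by MITF and its relatives, TGANTCA, the AP-1 site, and GAGGAAGT, a site of the PU.1 type. Capitals mark every match, and positions of different motifs do not overlap. The windows are chr6:49036268-49036567 on the plus strand for Gpnmb, and chr1:172590519-172590818 and chr11:69666121-69666420 on the minus strand for Slamf8 and Cd68.
Gpnmb: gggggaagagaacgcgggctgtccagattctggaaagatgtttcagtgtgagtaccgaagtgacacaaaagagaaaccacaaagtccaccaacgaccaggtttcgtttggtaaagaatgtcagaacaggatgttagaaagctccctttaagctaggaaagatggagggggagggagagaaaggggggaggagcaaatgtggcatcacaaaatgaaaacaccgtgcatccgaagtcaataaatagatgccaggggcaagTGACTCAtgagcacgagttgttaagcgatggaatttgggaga
Slamf8: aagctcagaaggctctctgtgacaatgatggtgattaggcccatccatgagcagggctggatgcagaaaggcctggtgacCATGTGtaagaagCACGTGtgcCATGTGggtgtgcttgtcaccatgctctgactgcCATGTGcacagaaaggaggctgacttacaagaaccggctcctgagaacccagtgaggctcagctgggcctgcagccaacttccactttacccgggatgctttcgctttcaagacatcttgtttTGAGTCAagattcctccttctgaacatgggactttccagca
Cd68: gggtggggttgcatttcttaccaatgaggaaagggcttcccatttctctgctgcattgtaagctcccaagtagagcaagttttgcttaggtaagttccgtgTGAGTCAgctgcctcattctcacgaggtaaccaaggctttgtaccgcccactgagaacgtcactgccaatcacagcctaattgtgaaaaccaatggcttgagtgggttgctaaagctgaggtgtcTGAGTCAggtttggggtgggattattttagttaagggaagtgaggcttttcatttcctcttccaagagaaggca
TGANTCA was found in 4 of the 9 windows (Gpnmb, Slamf8, Trem2 and, at 2 places, Cd68) and in 7.81% of all 32851 windows. CACGTG was in 1 of 9, that of Slamf8, against 7.15% of all, and CATGTG likewise in Slamf8 only, at 3 places, against 14.2%. GAGGAAGT was in 2 of 9, Abcg3 and Spp1, against 3.2%. A match describes letters in the window and shows no binding.

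Genes around these 10 were read from lists of known partners. Over all pathway lists, each gene counted once, 37 of 170 measured genes were lower and 2 higher at an unadjusted p under 0.05, where 4.71% of all genes tested were lower and 4.35% higher. None passed after adjustment (limma), the lowest adjusted p being 0.398. The macrophage and monocyte markers were lower on the same arrays, and their part in these counts was not tested.

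The lipid-associated macrophage signature without the 10 genes had 27 of 29 measured genes with lower means, a median of -0.49, and 15 lower and 1 higher at an unadjusted p under 0.05. Hexa, a lysosomal hexosaminidase chain, was lower by 0.71 ± 0.11 and Ms4a7, a membrane protein of macrophages, by 0.90 ± 0.17, both as log2 difference and standard error. Lipa, the lysosomal acid lipase, differed by -1.003 ± 0.21. Cd9, a tetraspanin that epithelium also makes, was higher by 0.52 ± 0.11. The adjusted p was 0.398 for Hexa and 0.418 for the others (limma). The count of 15 became 6 without WT replicate 2, 8 without KO replicate 1 and 7 without KO replicate 2, and with both WT replicate 2 and KO replicate 3 left out it was 14. Of its 30 members 10 are held by other lists.

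Of the partners and adaptors of TREM2, 19 of 20 had lower means, with a median of -0.40 and 4 at an unadjusted p under 0.05. Besides Ms4a7 these were Adam17, a protease that sheds the receptor, at -0.37 ± 0.13, Apoe, a lipoprotein ligand, at -0.27 ± 0.10, and Syk, the kinase downstream, at -0.70 ± 0.28, with adjusted p from 0.418 to 0.54 (limma). Tyrobp, the signalling adaptor itself, was at -0.55 ± 0.31. The count of 4 was 1 without WT replicate 2 or KO replicate 2, 2 without KO replicate 1, 8 with both WT replicate 2 and KO replicate 3 left out, and 11 without KO replicate 3.

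In the MITF and TFEB list, which holds these lysosomal transcription factors with genes of lysosome and cell fusion, 18 of 22 means were lower (median -0.23), 6 at an unadjusted p under 0.05. Atp6v0d2, a proton pump subunit, was lower by 1.76 ± 0.38, Acp5, the tartrate-resistant phosphatase, by 0.54 ± 0.11, Nfatc1, a transcription factor of osteoclasts, by 0.68 ± 0.17 and Ctsk, cathepsin K, by 0.39 ± 0.13. Their adjusted p lay between 0.418 and 0.476 (limma), and the count of 6 was 3 without WT replicate 2 or KO replicate 1. Acp5, Nfatc1 and Ctsk are also osteoclast markers, a list in which 7 of 8 measured genes were lower. Calcr, the remaining gene of that list, was not well above background on all arrays of either group. The cells behind these signals were not tested.

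Of 20 genes of cholesterol uptake, storage and export, 15 were lower (median -0.25), 5 at an unadjusted p under 0.05. Besides Lipa and Apoe these included Nceh1, a cholesteryl ester hydrolase, at -1.01 ± 0.30 and Abca1, a cholesterol exporter, at -0.36 ± 0.12, with adjusted p of 0.463 and 0.488 (limma). That count was 2 without KO replicate 1 or 2 and 3 without any 1 WT array. Of 28 genes of fatty acid uptake, droplets and oxidation, 14 were lower and 14 higher, with a median of -0.0023 and 1 at an unadjusted p under 0.05. That gene was Plin2, which coats lipid droplets, at -0.63 ± 0.17 with an adjusted p of 0.454 (limma). Acsl3, an acyl-CoA synthetase, differed by 0.27 ± 0.11, Ppargc1a, a regulator of mitochondria, by 1.22 ± 0.56 and Lipe, the hormone-sensitive lipase, by -0.55 ± 0.28.

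Among cofactors of lipoprotein lipase 8 of 10 measured genes were lower (median -0.29), 2 of them and 1 higher gene at an unadjusted p under 0.05, the 2 becoming 1 without WT replicate 3 or KO replicate 1 and 0 without WT replicate 2, KO replicate 2 or KO replicate 3. Sel1l, which helps the enzyme to mature, differed by -0.25 ± 0.09, Lmf1, its folding factor, by -0.27 ± 0.11, Apoc3, an inhibitor, by -0.32 ± 0.11, and Gpihbp1, which holds the lipase on capillaries, by 0.50 ± 0.19. The receptors and partners of osteopontin, GPNMB and galectin-3 had 9 lower and 9 higher means (median -0.0079), with 1 lower at an unadjusted p under 0.05. That was Mertk, a receptor for dying cells, at -0.47 ± 0.09 (limma, adjusted p = 0.418), followed by Lgals3bp at -0.41 ± 0.17, Itga4 at -0.56 ± 0.24 and Itgb5 at -0.39 ± 0.18.

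The relatives of Slamf8 were lower for 8 of 9 measured genes (median -0.65), 6 at an unadjusted p under 0.05. The median was -0.29 with normexp background (offset 50) and -0.42 with no filter on dim probes. Ly9 was lower by 1.18 ± 0.28, Cd48 by 0.85 ± 0.26, Slamf9 by 0.35 ± 0.11 and Cd84 by 0.65 ± 0.23, with adjusted p from 0.433 to 0.495 (limma). The count was 3 without WT replicate 2 or 3 and 2 without KO replicate 1. For other members of the ABCG family differences ran from -0.28 for Abcg1, the cholesterol exporter, over -0.07 for Abcg8 and -0.03 for Abcg4, to -0.0037 for Abcg2, and 0 of 4 had an unadjusted p under 0.05 (limma). The difference between Abcg3 and these relatives was not tested. Other galectins had 4 lower and 5 higher means (median 0.04), with Lgalsl at 0.39 ± 0.18, Lgals2 at 0.40 ± 0.28, Lgals1 at -0.13 ± 0.10 and Lgals9 at -0.12 ± 0.10. Scavenger receptors other than Cd36 and Cd68 were lower for 8 of 16 (median 0.0035), with Stab2, a hyaluronan receptor, at -0.74 ± 0.13, Cxcl16 at -0.51 ± 0.20, Stab1 at -0.64 ± 0.32 and Megf10 at 0.45 ± 0.35. The medians of the fatty acid, receptor, galectin and scavenger lists lay so near 0 that their sign turned with arrays left out, and for all but the galectins also with the normalisation.

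The genes whose pattern over the 6 arrays was most like that of Gpnmb were taken among 2740 named genes well above background on all arrays and spanning at least 1 log2 unit. In order of Pearson's r with Gpnmb they were F7, coagulation factor VII, at 0.989, Spic, a transcription factor of iron-recycling macrophages, at 0.987, Hrh1, a histamine receptor, at 0.985 and Atp6v0d2 at 0.983. Hvcn1, a proton channel of phagocytes, at 0.98, Glipr1 at 0.966, Tmem86a at 0.959 and Zmynd15 at 0.958 followed. Spearman's rho was between 0.771 and 1 for these 8. The points share the arrays and Gpnmb was chosen for its group difference, so the correlations only describe. After group means were taken out, r with Gpnmb was between 0.85 and 0.965. The 8 genes were chosen for a high r on these same arrays, so this range is no separate support. Spic read -1.30, -1.09 and -1.68 in WT and -2.92, -2.46 and -1.97 in KO-labelled ureters.

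Markers of other cells in the tissue gave the following. None of them passed an adjusted p of 0.05 (limma), the lowest being 0.398. Of all genes tested 50.2% had a lower mean. All 11 measured dendritic cell and MHC class II genes were lower, Cd74 by 1.34 ± 0.28 and H2-Ab1 by 1.33 ± 0.28. Of the macrophage and monocyte list 15 of 18 were lower, Mertk and, by 0.56 ± 0.13, the complement subunit C1qc among them. Of these, 10 had an unadjusted p under 0.05, or 6 without KO replicate 1 or 2. Among all genes tested 4.71% were lower at such a p. The general leukocyte list was lower for 9 of 9 genes, led by Laptm5 at -0.76 ± 0.29 and Vav1 at -0.70 ± 0.36. Urothelium markers were higher for 13 of 13, with Krt5 at 0.91 ± 0.19 and Krt7 at 0.95 ± 0.20, and smooth muscle markers for 10 of 10, with Actg2 at 0.74 ± 0.35 and Synpo2 at 0.70 ± 0.34. Neutrophil markers split into 6 lower and 6 higher, with Camp higher by 1.17 ± 0.18 and Ngp, with 0 WT arrays well above background, at least 3.62-fold higher. T cell markers had a median of 0.01, with Cd247 at 0.08 ± 0.13 and Cd3d at 0.21 ± 0.36, and fibroblast markers of -0.03, with Col1a1 at -0.15 ± 0.15 and Col3a1 at -0.08 ± 0.09. Endothelial markers had a median of 0.09, with Cldn5 at 0.48 ± 0.20. Adipocyte markers had a median of 0.01, with Retn at 0.81 ± 0.27 and Lipe the other way at -0.55 ± 0.28. Nerve markers had a median of 0.25, with Mbp at 0.26 ± 0.11 and Ncmap at 0.59 ± 0.30. Melanocytes, which also make GPNMB, had 4 of 7 markers measured, all with means higher by 0.02 to 0.23, with Pmel at 0.23 ± 0.17 and Dct at 0.07 ± 0.14, and Mlana and Tyrp1 were not well above background on all arrays of either group. In the kidney list Lrp2, well above background on 3 WT arrays and 1 KO-labelled array, read -3.99 to -4.05 in WT and -4.66 to -5.12 in KO-labelled ureters, and Slc22a6 differed by -1.27 ± 0.87, the latter at 0.28 in WT replicate 2 and between -3.39 and -2.39 on the other arrays.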

How the data were processed

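Per the labels' protocols, total RNA was column-purified and Cy3-labelled cRNA hybridised to 1-colour Agilent arrays. Per the file headers, the deposited intensity values come from Agilent Feature Extraction 12.0.3.1, background-subtracted and detrended within each array, with probe coordinates on mm9 and all 6 arrays on 1 slide with 1 scan time. The sources used here do not give the authors' normalisation between arrays. The flags that the authors' deposited files give per spot (well above background, saturated, outlier) were used as they stand.

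From 59305 non-control spots (56605 probes), outlier spots were set to missing, spots of a probe averaged, and log2 processed signal centred on each array's 75th percentile, which was a signal of 143.7 to 164.9. Arrays had 35482 to 36567 probes well above background and 0 saturated spots, and precision is limited by their number. Accessions of 35405 probes matched RefSeq (GRCm38.p6) and 21200 kept the file's name. A probe had to be well above background on all 3 arrays of a group. Each gene's brightest probe (22260 genes) went into limma 3.58.1 (lmFit, eBayes) under R 4.3.3, and p-values were adjusted over all genes by Benjamini-Hochberg. The procedure was tested on simulated data.

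The 10 genes, the lists and the tests were chosen with earlier results of these data known. Named are all probes of the 10 genes, the 4 genes of lowest unadjusted p in each pathway list and 2 in each marker list, the 8 genes most like Gpnmb by Pearson correlation, and Col17a1. Tyrobp, Calcr, Mlana and Tyrp1 are named outside this rule, after their values were seen. The 3 promoters printed, of 6 with a motif match, were chosen after values and sequences were seen. Alternatives covered background, normalisation, filter, probe choice, variance model, array weights, replicate block and each array left out.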

Additional observations from a re-analysis of the deposited data

How the results depend on the processing

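The count of all genes past the threshold was 0, and also 0 in most alternatives. It was 498 with array weights, 1 with the replicate block and 0 to 1 with each array left out, and the 1 gene was in both cases a transcript outside the 10 genes. None of the 7 genes tested passed in any alternative, with adjusted p from 0.0549 (Trem2, array weights) upward. Replicate numbers did not pair the arrays throughout. Deviations of same-numbered arrays correlated at 0.53, -0.15 and -0.03, and those of differently numbered arrays at -0.45 to 0.46. The replicate block changed no call among the 7. The median of the 7 genes not picked on their signal was -0.20, from -0.34 to -0.20 with each array left out, and 0.29 relative to the macrophage and monocyte list. The median of all 10, which the 3 picked genes lower, was -0.83, from -1.11 to -0.68 with each array left out and -0.34 relative to that list. Subtracting that list shifts the difference of every gene by 0.49, so Lgals3 (0.29), Cd36 (0.34) and Fabp5 (0.32) turned sign. Lpl turned sign with quantile normalisation (-0.0023) and with both WT replicate 2 and KO replicate 3 left out (-0.16), and ran from -0.32 to 0.41 with each array left out. Cd36 turned sign with array weights (0.015) and ran from -0.34 to 0.078 with each array left out. The cause of the Lpl and Cd36 sign changes in these other settings was not tested. All genes at an unadjusted p under 0.05 numbered 2017, and 1117 to 3128 with each array left out and 6086 with array weights, which ranged from 0.23 to 6.93. Slamf8 and Abcg3, dim in KO-labelled ureters but well above background at the probes used, had differences of -0.67 and -0.49 with normexp background. Its offset of 50, added to every signal, shrinks differences of dim probes. The subtraction of the list and leaving out both arrays were chosen after the data were seen.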
